A study of Mus musculus with 15 samples.

Results

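Scavenger receptors and C-type lectin receptors were examined in LPS-treated macrophages that had been exposed to plasma extracellular vesicles (EVs) from mice after whole body irradiation (WBIR). The group was defined by name as Msr1, Marco, Cd36, Mrc1, Trem2, Clec4e, Clec4n, Clec5a and Clec7a, and a gene was included where the count table held its symbol. The table held 6 of these 9 genes among its 561 (Msr1, Marco, Cd36, Trem2, Clec4e and Clec5a), and Mrc1, Clec4n and Clec7a were not analysed here.

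The counts came from nanoString's nCounter Mouse Immunology Panel, where color-coded probes bound to each mRNA are counted without amplification. The cells were RAW 264.7 macrophages, an established mouse macrophage line grown from a virus-induced tumor, so the line stands in for a macrophage and carries none of the donor mice's own cells. All cells received lipopolysaccharide (LPS), a bacterial cell wall product that activates macrophages, together with EVs for 24 hours. The EVs came from the plasma of young adult female C57BL/6J mice. The 5 groups of 3 samples received EVs of sham mice that were not irradiated (sham EVs), of mice 3 or 7 days after 2 Gy (2 Gy day 3 EVs and 2 Gy day 7 EVs), or of mice 3 or 7 days after 9 Gy (9 Gy day 3 EVs and 9 Gy day 7 EVs). No sample without LPS or without EVs was analysed here. The labels do not say whether the samples of a group were separate cultures or how many mice gave the plasma, so the p-values measure only the spread between these samples, which may be technical. The labels and the methods of the study differ in the number of EVs added and in the lysis reagent.

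Scavenger receptors bind modified lipoproteins, apoptotic cells and microbial surfaces and carry them into the macrophage, which makes them part of both clearance and lipid loading. C-type lectin receptors read sugars and glycolipids on microbes and damaged cells. Clec4e signals through the adaptor Fcer1g, and Clec5a and Trem2 through the adaptor Tyrobp (DAP12), and these adaptors pass the signal to the kinase Syk and onward through Card9 to cytokine genes.

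The 9 Gy day 3 samples were far shallower than the rest, with 43176 to 87899 counts in all against 453178 to 837995 in the other 12 samples, and with 190 to 246 genes at the lowest count of 1 against 5 to 11. In addition, 2 of these samples, replicates 1 and 2, were titled as day 3 but bear day 7 in a second label. They were placed by their titles, and day 3 values without them are given beside the results on the receptors and, in counts, the gene lists. Those values rest on 1 sample, which the fit assumes to vary like the samples of the other groups. Without them 78 of the 269 tested genes were called at day 3 (8 higher and 70 lower), against 141 with them. Counts were divided by the geometric mean of 14 housekeeping genes, set to the level of the sham samples, and are called scaled counts here. Genes with a mean of at least 20 raw counts were tested, 269 of 561. Of the 13 housekeeping genes tested, 9 were past the threshold in 9 Gy day 3 EVs against sham EVs (3 higher and 6 lower) and 8 in 9 Gy day 7 EVs (4 higher and 4 lower). With other scalings the median change of all tested genes lay 0.18 (only the housekeeping genes averaging 100 counts or more) to 1.01 (total count) higher on the log2 scale at day 3 and 0.195 to 1.09 higher at day 7, so the directions below depend on the scaling unless stated otherwise.

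Of the 6 macrophage markers on the panel, Ptprc, Itgam, Cd14, Emr1 and Fcgr1 lay above background in every sample, whereas Csf1r lay at or below it in the 9 samples with sham or 2 Gy EVs. Background here is the mean plus 2 SD of the raw counts of 20 lymphocyte genes in the same sample. It leans on Cd8a, the highest of them. In the sham samples the level was 45.5 to 69.5 with Cd8a and 16.1 to 25.0 without it. Statements below on counts at or below background use the level with Cd8a unless stated otherwise. The summed scaled count of the 6 was 5238 to 8278 in the sham group and 2526 to 3943 with 9 Gy EVs of either day. At both 9 Gy days 4 of the 6 fell, Csf1r rose and Ptprc did not pass the test. Of all tested genes 41.3% fell and 11.2% rose at day 3, and 49.1% fell and 11.9% rose at day 7. With total counts 1 of the 6 fell at day 3 and 0 at day 7 and 2 rose at both. Of the 269 tested genes 33 then fell and 121 rose at day 3, and 31 fell and 143 rose at day 7. With the samples of conflicting labels left out, 2 fell and 1 rose at day 3. The part of this shift in the receptor results was not tested. Among the 20 lymphocyte genes taken as a background list, all of them present on the panel, Cd8a was the highest, at 74 to 175 raw counts outside the 9 Gy day 3 group and 9 to 12 within it. The summed scaled count of this list was 244 to 330 with sham or 2 Gy EVs, 169 to 273 in the 9 Gy day 3 group and 154 to 191 in the 9 Gy day 7 group. In such bulk samples fewer cells that express a gene and less of its RNA per cell cannot be told apart.

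The start regions of 3 of the receptor genes are shown because Trem2 was the receptor that rose, Clec5a one that fell, and Cd36 one that did not pass the test against sham EVs. They run from 250 bases before to 50 bases after the annotated start in RefSeq, 5′ to 3′ on the gene's strand, on build GRCm38.p6. For Cd36 the window lies inside the annotated gene, whose outer 5′ end is at base 17888959 of chromosome 5. Capitals mark matches to any of 7 short motifs searched on both strands.

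Trem2, chr17:48346151-48346450, plus strand: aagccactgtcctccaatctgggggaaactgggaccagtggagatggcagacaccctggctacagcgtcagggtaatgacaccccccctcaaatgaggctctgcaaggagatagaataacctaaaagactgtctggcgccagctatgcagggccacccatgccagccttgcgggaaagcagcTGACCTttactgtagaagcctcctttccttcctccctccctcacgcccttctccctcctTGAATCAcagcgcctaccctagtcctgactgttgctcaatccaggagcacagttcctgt
Cd36, chr5:17835847-17836146, minus strand: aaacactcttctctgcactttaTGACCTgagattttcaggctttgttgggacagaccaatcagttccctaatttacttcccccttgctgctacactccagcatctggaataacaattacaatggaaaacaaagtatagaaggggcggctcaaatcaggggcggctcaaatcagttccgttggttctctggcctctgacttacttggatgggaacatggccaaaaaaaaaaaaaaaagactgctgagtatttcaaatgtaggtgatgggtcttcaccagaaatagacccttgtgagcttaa
Clec5a, chr6:40585756-40586055, minus strand: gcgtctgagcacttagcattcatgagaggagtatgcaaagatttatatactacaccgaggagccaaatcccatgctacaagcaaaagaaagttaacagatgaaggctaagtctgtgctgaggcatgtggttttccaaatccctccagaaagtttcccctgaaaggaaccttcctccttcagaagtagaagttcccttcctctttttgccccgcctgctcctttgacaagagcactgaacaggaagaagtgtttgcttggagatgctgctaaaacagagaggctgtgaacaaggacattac

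The motifs were AGGTCA (a site of nuclear receptors), TGANTCA (AP-1), TTCNNNGAA (STAT), GAGGAAGT (PU.1), TTGCNNCA (C/EBP), CACGTG (E-box) and GGGANTTCC (NF-kB). Trem2 held AGGTCA, read as TGACCT on the opposite strand, at base -68 from its start, and the AP-1 letters TGAATCA at base -9. Cd36 held it at base -228. Clec5a, Clec4e and Marco held none of the 7 in their windows, and no window was on hand for Msr1. Over all 32544 RefSeq start regions of this length AGGTCA occurred in 16.2%, TGANTCA in 7.79%, TTCNNNGAA in 8.33%, GAGGAAGT in 3.11%, TTGCNNCA in 11.4%, CACGTG in 7.17% and GGGANTTCC in 1.69%. These matches describe letters in the genome and not binding in these cells.

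The receptors did not move as a block. In the 9 Gy day 7 group, Trem2 rose over sham EVs from a level near background, Msr1 fell to 0.435-fold and Clec5a fell to 0.661-fold, while Cd36 and Clec4e did not pass the test. In the 9 Gy day 3 group, Trem2 and Msr1 passed the test in the same directions as at day 7. After 2 Gy of either day, no receptor passed it. Of the 5 receptors tested, 2 were called in the 9 Gy day 3 group (1 higher and 1 lower), where 52.4% of all tested genes were (11.2% higher and 41.3% lower), and 3 in the 9 Gy day 7 group (1 higher and 2 lower), where 61.0% were (11.9% higher and 49.1% lower). Thus the count of receptors called was not above that of the panel as a whole. The median log2 change of the 5 was -0.07 at day 3 and -0.05 at day 7, beside -0.46 and -0.45 for all tested genes. Both comparisons use the same 3 sham samples. The split by direction moved with the scaling. With TMM 59 tested genes were higher and 60 lower at day 3 and 75 and 76 at day 7, and with total counts 121 were higher and 33 lower at day 3 and 143 and 31 at day 7. Of the receptors, TMM called 1 higher and 0 lower at day 3 and 2 and 0 at day 7, and total counts called 4 higher and 0 lower at both days.

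**Figure D1:**
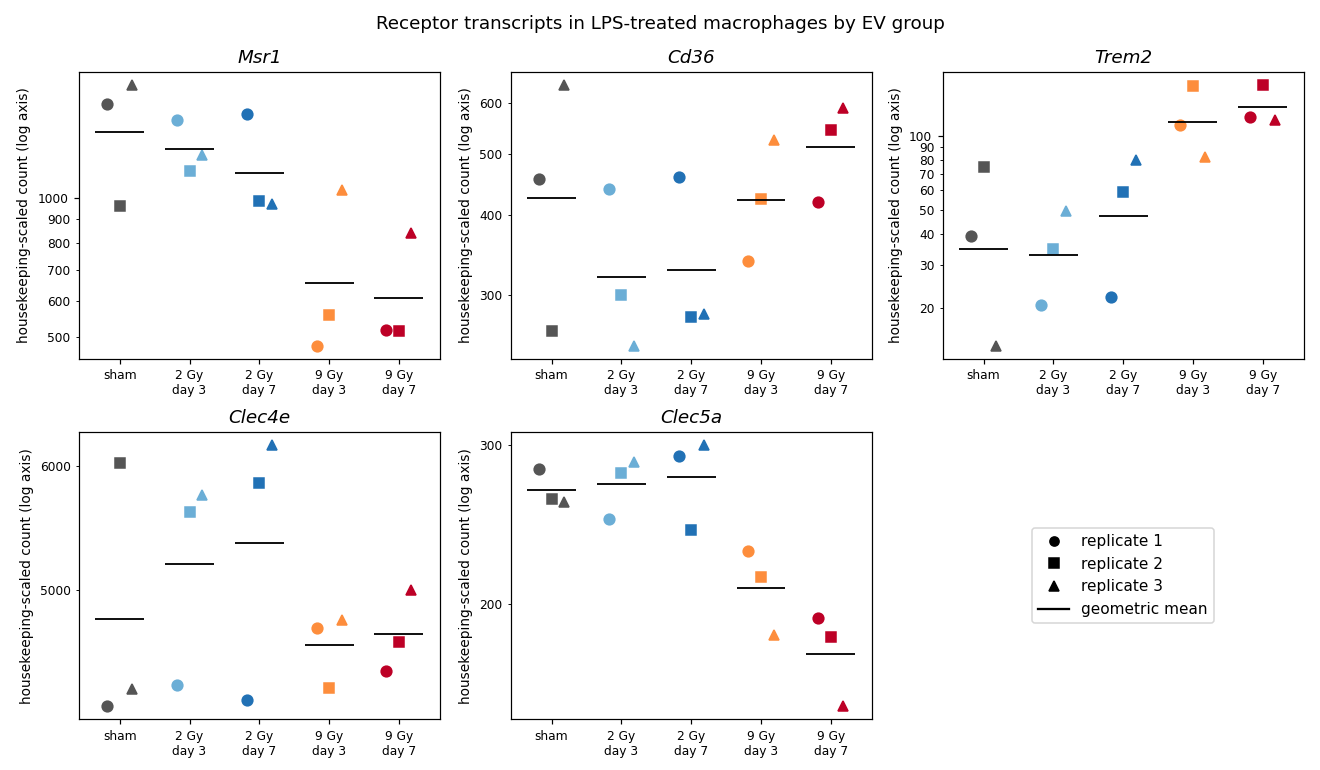
Scaled counts (housekeeping-scaled, log axis, a separate range for each gene) of the 5 tested receptors in the 15 samples by EV group, with replicates 1, 2 and 3 as circles, squares and triangles and a bar at the geometric mean of each group. Trem2 was at 82.2 to 161 in the 6 samples with 9 Gy EVs and at 14.1 to 80.1 in the other 9, whereas the Clec4e samples of the groups overlapped.

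Msr1 encodes scavenger receptor A, a trimeric receptor that takes up acetylated lipoproteins and bacteria. Its scaled counts were 1596, 962 and 1757 in the 3 samples in the sham group. They were 480, 558 and 1044 in the 9 Gy day 3 group and 519, 515 and 842 in the 9 Gy day 7 group. All 3 samples of 9 Gy day 7 EVs lay below every sham sample, as did 49.1% of the tested genes, whereas replicate 3 of 9 Gy day 3 EVs lay above sham replicate 2. The group means were 1438 ± 421 (SD, n = 3) in the sham group, 694 ± 306 in the 9 Gy day 3 group and 625 ± 187 in the 9 Gy day 7 group. The log2 fold change was -1.04 ± 0.32 (SE) at day 3 (edgeR quasi-likelihood test, Benjamini-Hochberg adjusted p = 0.0146). At day 7 it was -1.20 ± 0.31 (edgeR adjusted p = 0.00468). On the housekeeping scale the day 7 fall held in all 6 fits that left out 1 sample. The day 3 fall was called in 3 of 6, and leaving out replicate 1 or 2 of 9 Gy day 3 EVs or sham replicate 3 gave edgeR adjusted p of 0.0645, 0.0658 and 0.0591. With both samples of conflicting labels left out, Msr1 at day 3 was -0.46 (edgeR adjusted p = 0.425).

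This fall of Msr1 depended on the scaling. With TMM, which balances rises and falls over the panel, the log2 fold change was -0.57 at day 3 (edgeR adjusted p = 0.167) and -0.72 at day 7 (edgeR adjusted p = 0.0653). With total-count scaling it was -0.05 and -0.14, with edgeR adjusted p of 0.877 and 0.674. Msr1 ranked 192 of 269 from the highest change at day 3 and 208 of 269 at day 7, so it lay in the lower part of the panel under the housekeeping scale but not at its end. For EVs of the lower dose the scaled counts of Msr1 were 1477, 1145 and 1237 at day 3 and 1521, 987 and 970 at day 7, all within the range of the sham samples. The log2 fold changes there were -0.16 (95% interval -0.82 to 0.50) and -0.31 (-0.97 to 0.35).

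Cd36, a class B scavenger receptor, takes up oxidized lipoproteins and long-chain fatty acids. Its scaled counts were 455, 263 and 641 in the sham group, 340 (339.5), 424 and 526 in the 9 Gy day 3 group and 420, 545 and 589 in the 9 Gy day 7 group. With 2 Gy EVs they were 440, 299 and 249 at day 3 and 459, 276 and 280 at day 7. The sham samples spanned a 2.44-fold range that held all samples but 1, the third sample of 2 Gy day 3 EVs. Against sham EVs the log2 fold change was -0.06 (95% interval -0.77 to 0.64, edgeR adjusted p = 0.862) in the 9 Gy day 3 group and 0.19 (-0.47 to 0.86, edgeR adjusted p = 0.599) in the 9 Gy day 7 group. With both samples of conflicting labels left out, the day 3 value was 0.215 (edgeR adjusted p = 0.768). With total-count scaling Cd36 was higher, by 0.94 at day 3 (edgeR adjusted p = 0.0313) and by 1.27 at day 7 (edgeR adjusted p = 0.00368). In the 2 Gy groups its log2 fold changes were -0.46 (-1.14 to 0.21) and -0.42 (-1.09 to 0.25).

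Marco, a scavenger receptor that binds bacteria and particles, was hardly counted. Its raw counts were 1 to 8 in the 12 deeper samples and 2 in each sample in the 9 Gy day 3 group. All lay below the background level of their sample, so no fold is given, and its mean count was under the minimum for the test.

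Trem2 is a lipid-sensing receptor of the immunoglobulin family that signals through Tyrobp and is known from lipid-laden macrophages and microglia. Its scaled counts were 39.4, 74.7 and 14.1 in the sham group. They were 111, 160 (159.5) and 82.2 in the 9 Gy day 3 group and 119, 161 and 116 (115.5) in the 9 Gy day 7 group. All 6 samples with 9 Gy EVs lay above all sham samples, although sham replicate 2 and replicate 3 of 9 Gy day 3 EVs nearly met. Such a full separation upward was seen for 11.9% of the tested genes at day 3 and 12.6% at day 7. The means were 42.7 ± 30.5 (SD, n = 3), 118 ± 39.1 and 132 ± 25.2. The log2 fold change was 1.45 ± 0.58 (SE) at day 3 (edgeR adjusted p = 0.0487) and 1.62 ± 0.49 at day 7 (edgeR adjusted p = 0.0111). Because sham counts near background leave the size of the fold uncertain, counts below the background level of their sample were also set to it, a choice made after the values were seen. The log2 fold change was then 0.92 (edgeR adjusted p = 0.0092) at day 3 and 1.10 (edgeR adjusted p = 0.000275) at day 7.

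The rise of Trem2 kept its direction and stayed past the threshold under each of the 5 scalings at both days. Among these its log2 fold change was lowest with the housekeeping genes and highest with total counts, at 2.50 at day 3 (edgeR adjusted p = 0.00251) and 2.76 at day 7 (edgeR adjusted p = 0.000277). These sizes lean on sham counts near background, and setting low counts to the background level was done on the housekeeping scale only. At day 7 it also passed the threshold in all 20 alternatives that tested it, with leave-one-out values of 1.19 to 2.33. At day 3 it passed in 12 of 20, and in 2 of the 6 fits that left out 1 sample, with values of 1.02 (without sham replicate 3) to 2.15 (without sham replicate 2) and edgeR adjusted p of up to 0.208 (without replicate 2 of 9 Gy day 3 EVs). With both samples of conflicting labels left out it was 0.94 (edgeR adjusted p = 0.467), from a single 9 Gy day 3 sample. The raw counts behind the day 3 values were 15, 32 and 20.

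Trem2 was also the tested receptor closest to background. In sham and 2 Gy samples its raw counts were 15 to 78, at or below the background level in 7 of 9 samples. Without Cd8a in the background list, a choice made after the values were seen, it was at or below it in 2 of 9. In the 6 samples with 9 Gy EVs Trem2 lay 2.28 to 5.85 times above it. Because no negative control probes are in the table, how much of the low counts was true transcript was not tested. After 2 Gy the scaled counts were 20.5, 34.8 and 49.3 at day 3 and 22.1, 59.1 and 80.1 at day 7. Counts lay at or below background in all 3 samples of 2 Gy day 3 EVs, in 2 of 3 of 2 Gy day 7 EVs and in 2 of 3 of sham EVs, so no fold is given between these groups. The sham samples alone spanned a 5.31-fold range.

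**Figure D2:**
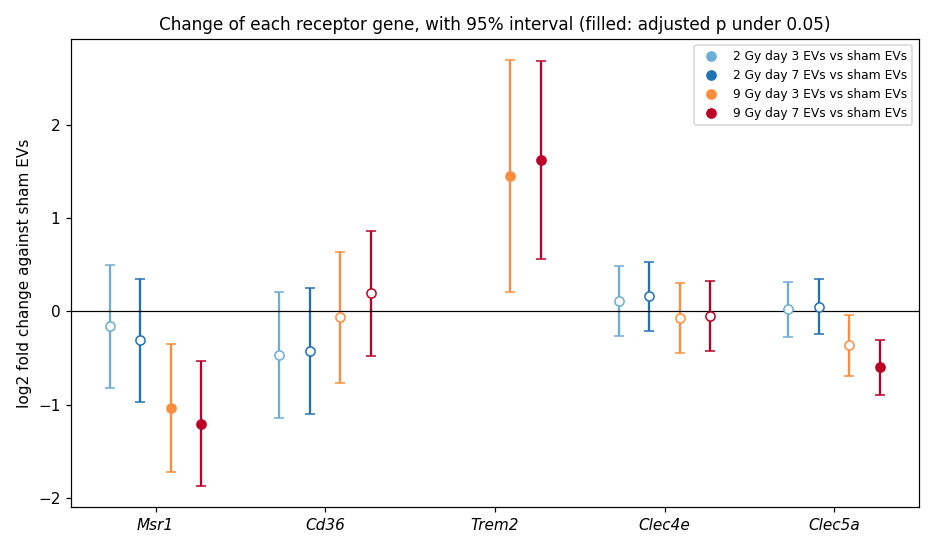
Log2 fold change against sham EVs (vertical axis) of the 5 tested receptors for each of the 4 irradiated EV groups, with the 95% interval from the edgeR fit. Trem2 with 2 Gy EVs is left out because it lay near background. Filled points passed an adjusted p of 0.05, and these are Msr1 and Trem2 with 9 Gy EVs of both days and Clec5a in the 9 Gy day 7 group.

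Clec4e (Mincle), a C-type lectin for mycobacterial cord factor and for a protein released by dying cells, is itself induced by LPS. Its scaled counts were 4214, 6030 and 4324 in the sham group, 4731, 4327 and 4786 in the 9 Gy day 3 group and 4437, 4634 and 4999 in the 9 Gy day 7 group. For EVs of the lower dose they were 4347, 5607 and 5752 at day 3 and 4252, 5857 and 6191 at day 7. All 6 samples with 9 Gy EVs lay within the range of the sham samples. The log2 fold changes were -0.07 (95% interval -0.45 to 0.30, edgeR adjusted p = 0.737) at day 3 and -0.05 (-0.42 to 0.32, edgeR adjusted p = 0.809) at day 7. The direction changed with other scalings. With TMM the value was 0.40 at day 3 (edgeR adjusted p = 0.0511) and 0.44 at day 7 (edgeR adjusted p = 0.027). With total counts it was 0.96 (edgeR adjusted p = 0.000129) and 1.06 (edgeR adjusted p = 4.42e-05). With both samples of conflicting labels left out, the day 3 value on the housekeeping scale was -0.02 (edgeR adjusted p = 0.981). With 2 Gy EVs the values were 0.11 (-0.26 to 0.48) and 0.16 (-0.21 to 0.54).

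Clec5a (MDL-1), a C-type lectin of myeloid cells that pairs with Tyrobp, was the steadiest of the receptors among sham samples. Its scaled counts were 282, 261 and 260 (259.7) in the sham group, a 1.09-fold range beside a median of 1.35 over all tested genes. They were 229, 214 and 185 in the 9 Gy day 3 group and 193, 184 and 154 in the 9 Gy day 7 group, and every one of these lay below every sham sample. Such a full separation downward was seen for 43.9% of the tested genes at day 3 and 49.1% at day 7. The log2 fold change was -0.36 ± 0.15 (SE) at day 3, which did not pass (edgeR adjusted p = 0.0575), and -0.60 ± 0.14 at day 7 (edgeR adjusted p = 0.00207). With both samples of conflicting labels left out, it was -0.53 at day 3 (edgeR adjusted p = 0.0862). With TMM it was 0.11 (edgeR adjusted p = 0.618) and -0.10 (edgeR adjusted p = 0.564). With total counts it turned to 0.66 (edgeR adjusted p = 0.0135) and 0.52 (edgeR adjusted p = 0.024). The fall of Clec5a was thus one relative to the geometric mean of the housekeeping genes, not to each of them. At day 7, 4 of the 13 tested housekeeping genes were called higher and 4 lower on that scale, among the latter Gapdh at -0.65. In the 2 Gy groups the scaled counts were 248, 280 and 288 at day 3 and 292, 242 and 300 (299.9) at day 7. The log2 fold changes were 0.02 (95% interval -0.27 to 0.32) and 0.05 (-0.24 to 0.35).

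**Figure D3:**
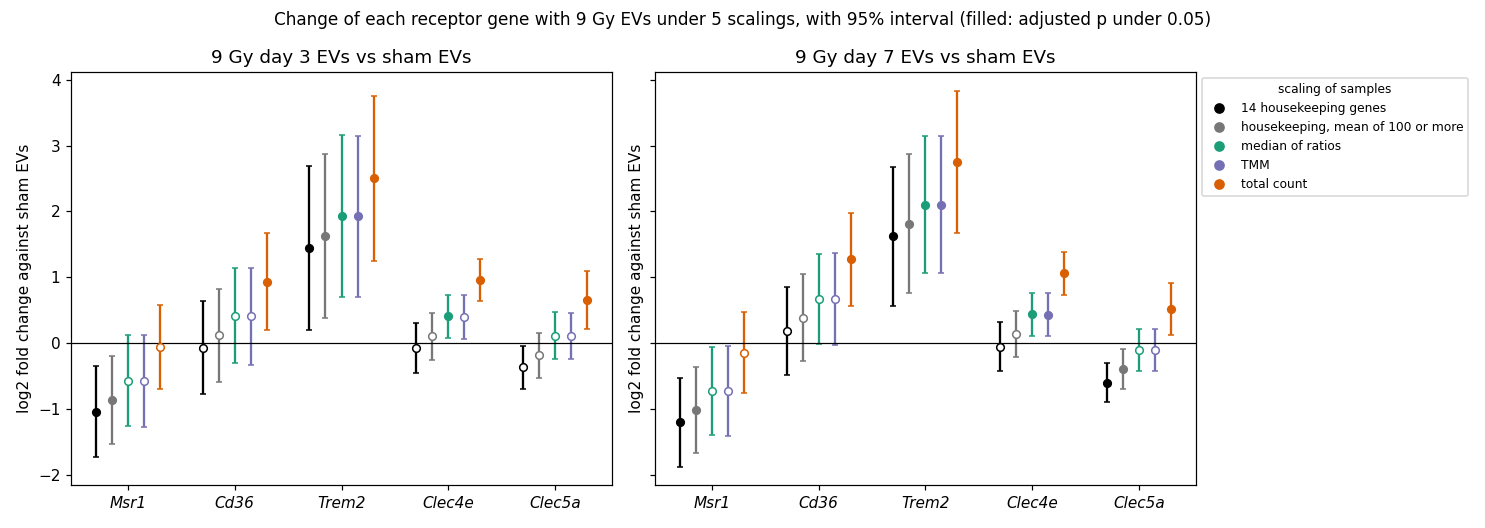
Log2 fold change against sham EVs (vertical axis, with 95% interval) of the 5 tested receptors under 5 scalings of the samples, for 9 Gy day 3 EVs on the left and 9 Gy day 7 EVs on the right. Filled points passed an adjusted p of 0.05, and Trem2 is filled and above 0 under all 5, from 1.45 to 2.50 at day 3 and from 1.62 to 2.76 at day 7.

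No receptor passed the test with 2 Gy EVs against sham EVs, nor did any other of the 269 tested genes at either day (0.0%). At an unadjusted p under 0.05 edgeR gave 0 receptors and 7 of 269 genes at day 3, and 0 receptors and 1 gene at day 7. With DESeq2, 1 gene was called at day 3 and 0 at day 7, and with no filter 0 and 1 of 561. For the order of the groups, mean scaled Msr1 ran from sham EVs (1438) through 2 Gy day 3 (1287), 2 Gy day 7 (1159) and 9 Gy day 3 (694) to 9 Gy day 7 (625), and mean Trem2 from 2 Gy day 3 (34.9) through sham (42.7) and 2 Gy day 7 (53.7), all near background, and 9 Gy day 3 (118) to 9 Gy day 7 (132). In both orders the sham and 2 Gy groups did not differ past the threshold from each other, nor did the 2 groups of 9 Gy.

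The difference between the doses was tested directly, by averaging the 2 groups of each dose, and 67.7% of the tested genes were called (15.6% higher and 52.0% lower with 9 Gy EVs). With TMM 89 genes were higher and 80 lower, and with total counts 168 were higher and 36 lower. Of the 5 receptors 3 were called, 1 higher and 2 lower. All 6 samples of 9 Gy lay above all 6 of 2 Gy for Trem2 and below them for Clec5a, as did 7.81% and 36.1% of the tested genes. Msr1 was lower, at -0.88 ± 0.22 (log2, SE; edgeR adjusted p = 0.00293), Clec5a was lower, at -0.52 ± 0.10 (edgeR adjusted p = 0.000539) and Trem2 was higher by 1.51 ± 0.38 (edgeR adjusted p = 0.00285). With counts under the background level set to it, Trem2 was higher by 0.75 (edgeR adjusted p = 0.000621). Cd36 was 0.51 ± 0.23 and did not pass (edgeR adjusted p = 0.062), and it was called, as higher, in 9 of 28 alternatives, among them TMM at 0.95 (edgeR adjusted p = 0.00296). Clec4e was -0.20 ± 0.12 (edgeR adjusted p = 0.167). With total counts Msr1 was 0.22 (edgeR adjusted p = 0.356) and Clec5a 0.63 (edgeR adjusted p = 0.000851), opposite in sign to the housekeeping scale, whereas Trem2 was 2.67 (edgeR adjusted p = 2.31e-05). The size of this Trem2 value leans on 2 Gy counts that lay mostly at or below background. Leaving out the samples of conflicting labels leaves 1 sample at 9 Gy day 3. The calls of Trem2 (1.26) and Msr1 (-0.60) were then lost, and Clec5a was -0.60. Same-numbered samples of day 3 and day 7 of a dose deviated together, so the 6 samples of a dose are not fully independent. With each such pair averaged to 1 value, 3 against 3, an alternative added after the values were seen, limma gave -0.93 for Msr1 (adjusted p = 0.0231), -0.52 (-0.515) for Clec5a (limma adjusted p = 0.021) and 1.63 for Trem2 (limma adjusted p = 0.0127).

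Between day 7 and day 3 no receptor was called within either dose in the main fit, which had no replicate block, nor any of the tested genes (0.0%). At an unadjusted p under 0.05 edgeR gave 0 receptors and 6 genes within 9 Gy and 0 receptors and 4 genes within 2 Gy, and DESeq2 called 0 genes in both. With the replicate number as a block and only those 2 groups in the fit, edgeR called 27 of 269 genes within 2 Gy (24 higher and 3 lower at day 7) and 0 within 9 Gy. Trem2 was among the 27 (edgeR adjusted p = 0.0401) and higher at day 7 in each of the 3 numbered pairs, but its counts lay at or below background in 5 of these 6 samples, and no fold is given. With the block and all groups in the fit 0 genes were called within either dose. With counts under 20 set to 20, which by construction raises low genes most in the shallow 9 Gy day 3 samples, 87 genes were called within 9 Gy, all lower at day 7. Within 9 Gy, Msr1 was -0.16 (95% interval -0.85 to 0.52), Trem2 0.17 (-0.98 to 1.32) and Clec5a -0.23 (-0.56 to 0.09). This comparison turns on the conflicting labels. With those samples placed at day 7, Msr1 was -0.83 (edgeR adjusted p = 0.434) and Trem2 0.69 (edgeR adjusted p = 0.784), and with them left out -0.74 (edgeR adjusted p = 0.646) and 0.68 (edgeR adjusted p = 0.839).

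Ratios between receptors within a sample do not depend on the scaling. They are ratios of probe counts, not of molecules, were chosen after the values were seen, and are given without a test. Cd36 over Msr1 was 0.285, 0.274 and 0.365 in the sham group, and 0.202 to 0.365 over all 9 samples with sham or 2 Gy EVs. It was 0.708, 0.759 and 0.504 in the 9 Gy day 3 group and 0.809, 1.06 and 0.700 in the 9 Gy day 7 group. All 6 samples with 9 Gy EVs thus lay above the other 9, with geometric means of 0.738 and 0.281. Of the other tested genes over Msr1, Cd36 included, 12.7% separated in this way. Trem2 over Msr1 was 0.00800 to 0.0825 in the 9 samples and 0.0787 to 0.312 in the 6, and Clec4e over Msr1 was 2.46 to 6.38 and 4.58 to 9.86, both with some overlap. Relative to Msr1, Cd36 was the receptor whose samples separated fully.

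**Figure D4:**
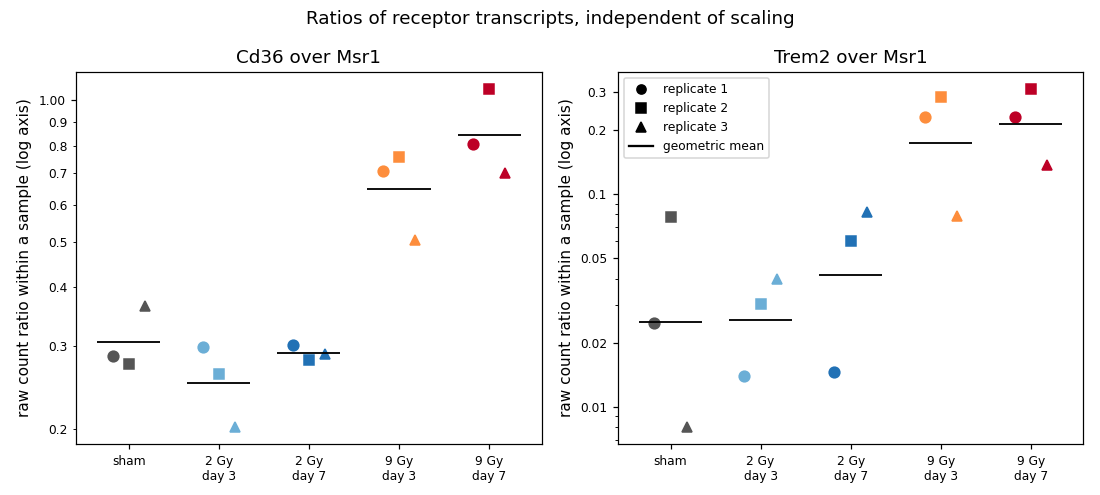
Ratio of raw counts within each sample (log axis) by EV group, Cd36 over Msr1 on the left and Trem2 over Msr1 on the right, with replicates 1, 2 and 3 as circles, squares and triangles and a bar at the geometric mean. The 6 samples with 9 Gy EVs are at 0.504 or higher for Cd36 over Msr1 and the other 9 at 0.365 or lower.

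Replicates of a group also differed among themselves in a shared way. The sample highest in Msr1 was the highest in Cd36 and the lowest in Trem2 in 5 of 5 groups, and the lowest in Clec5a in 4 of 5. It was sham replicate 3, replicate 1 at both days of 2 Gy and replicate 3 at both days of 9 Gy. This is a description of 15 samples, and what these replicates shared was not tested.

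The adaptors of these receptors differed in their changes. Fcer1g, the adaptor of Clec4e and of Fc receptors, had scaled counts of 4245 to 5677 in the sham group, 1904 to 1994 in the 9 Gy day 3 group and 1914 to 2126 in the 9 Gy day 7 group. Its log2 fold change was -1.38 ± 0.13 (SE; edgeR adjusted p = 1.36e-06) at day 3 and -1.33 ± 0.13 (edgeR adjusted p = 1.25e-06) at day 7. With the samples of conflicting labels left out it was -1.36 at day 3 (edgeR adjusted p = 0.000533). With total counts it was -0.36 (edgeR adjusted p = 0.058) and -0.23 (edgeR adjusted p = 0.19), still below 0. Tyrobp, the adaptor of Trem2 and Clec5a, named after its values were seen, was at 3010 to 3480 in the sham group and at 3221 to 3603 in the 9 Gy day 7 group. Its log2 fold changes were 0.04 (95% interval -0.18 to 0.26, edgeR adjusted p = 0.751) and 0.04 (-0.18 to 0.25, edgeR adjusted p = 0.761). It was called higher at both days under scalings not set by housekeeping genes. With TMM it was 0.51 (edgeR adjusted p = 0.00169) and 0.52 (edgeR adjusted p = 0.00121), and with total counts 1.06 (edgeR adjusted p = 3.71e-05) and 1.15 (edgeR adjusted p = 1.57e-05). For Clec4e the interval at day 3 (-0.45 to 0.30) lay wholly above that of its adaptor (-1.66 to -1.11).

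Of 28 listed genes of lectin receptor signaling 18 were on the panel and 17 were tested. In the 9 Gy day 3 group 1 rose and 4 fell, and in the 9 Gy day 7 group 0 rose and 5 fell, with medians of 0.04 and -0.15. Over all tested genes 52.4% and 61.0% were called, with medians of -0.46 and -0.45, a difference in share that was not tested. With the samples of conflicting labels left out, 0 rose and 1 fell at day 3. The kinase Fyn was called lower at both days (edgeR adjusted p = 0.00378 and 0.000181), with mean scaled counts of 80.8 in the sham group and 27.7 and 27.6 (27.55) with 9 Gy EVs, and not with total counts (edgeR adjusted p = 0.299 and 0.173). Syk, which takes up the adaptor signal, was called lower at day 7 (edgeR adjusted p = 0.000222) and not at day 3 (edgeR adjusted p = 0.15), with scaled counts of 33.5 to 59.1 in the sham group and 15.3 to 21.1 at day 7, and at neither day with total counts (edgeR adjusted p = 0.316 and 0.356). Syk lay at or below background in 2 of 3 sham samples and 3 of 3 at 9 Gy day 7, and Fyn in 1 of 3 sham samples and in 3 of 3 and 2 of 3 with 9 Gy EVs of day 3 and day 7, so no fold is given for either. Without Cd8a in the background list, the raw sham counts of Syk (35 to 63) and Fyn (51 to 102) lay above the level of 16.1 to 25.0. Card9, the scaffold downstream of Syk and also named after its values were seen, was -0.34 (edgeR adjusted p = 0.25) and -0.69 at day 7 (edgeR adjusted p = 0.0105). With TMM Card9 at day 7 was -0.20 (edgeR adjusted p = 0.386), and with total counts it turned to 0.65 at day 3 (edgeR adjusted p = 0.0292) and 0.43 at day 7 (edgeR adjusted p = 0.0689). With TMM 4 genes of this list were higher and 3 lower at day 3, and 5 and 4 at day 7, and with total counts 10 were higher and 0 lower at day 3, and 9 and 0 at day 7.

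Other pattern and uptake receptors were counted for comparison, 10 tested of 27 listed. At both days 0 rose and 6 fell, with medians of -1.16 and -1.16, where 41.3% and 49.1% of all tested genes fell and their medians were -0.46 and -0.45. They included the inhibitory Fc receptor Fcgr2b, which was -2.75 and -3.71 (edgeR adjusted p = 0.000193 and 7.17e-06), the high-affinity Fc receptor Fcgr1, which was -1.94 and -1.91 (edgeR adjusted p = 0.0029 and 0.00148), and the complement receptor chain Itgam, which was -1.76 and -1.60 (edgeR adjusted p = 9.59e-06 and 4.61e-06). With total counts 3 were higher and 2 lower at day 3, and 4 higher and 1 lower at day 7, Fcgr2b still being lower at -1.78 and -2.67. With total counts Fcgr1 was not called (edgeR adjusted p = 0.0737 and 0.0774), and Itgam was called at day 3 (edgeR adjusted p = 0.0215) but not at day 7 (edgeR adjusted p = 0.0559). On the housekeeping scale Fcgr2b was -1.93 at day 3 without the samples of conflicting labels. With the samples of conflicting labels left out, 0 of the list rose and 2 fell at day 3, and Fcgr1 was not called (edgeR adjusted p = 0.127). Among regulators of alternative activation and lipid handling 3 were tested of 15 listed (Stat6, Il4ra and Il13ra1), and none passed the test at either 9 Gy day. Il4ra lay at or below background in 3 of 3 sham samples. Without Cd8a in the background list its raw sham counts of 28 to 50 lay above the level. With total counts 2 of these regulators were higher at day 3 and 3 at day 7.

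Cytokine genes known downstream of the lectin receptors were mostly lower, and many of them are also known to be induced by LPS itself, which all groups received. Of 9 tested, 6 fell at day 3 and 7 at day 7, and 0 rose, beside 41.3% and 49.1% of all tested genes that fell. Their medians were -2.31 and -3.84, beside -0.46 and -0.45 over all tested genes. Il6 was -6.10 and -6.02 (edgeR adjusted p = 3.4e-08 and 1.43e-08) and Il1b was -4.53 and -4.52 (edgeR adjusted p = 0.000643 and 0.000368). Il23a was called lower at both days (edgeR adjusted p = 1.37e-05 and 3.56e-07), from raw counts of 126 to 399 in the sham group to 1 to 4 and 13 to 21, which lay at or below background in all 6 samples. In the 9 Gy day 3 group 1 of 3 Il6 counts also lay there. With the samples of conflicting labels left out, 7 of the 9 fell at day 3, Il6 at -5.83 (edgeR adjusted p = 0.000144) and Il1b at -3.35 (edgeR adjusted p = 0.0409). Il6, Il23a and Il1b were lower under each of the 5 scalings, Il6 still at -5.10 and -4.95 with total counts. Over the list, total counts called 1 higher and 4 lower at day 3, and 2 higher and 6 lower at day 7. Of the 269 tested genes they called 121 higher and 33 lower at day 3, and 143 and 31 at day 7. After 2 Gy none of these lists had a gene past the threshold.

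The genes of the panel whose profile was nearest to each receptor were found by the root-mean-square difference of log2 scaled counts over the 15 samples, each gene centered on its sham mean. For Msr1 these were Cd14, the LPS co-receptor, at 0.14 and Pou2f2 at 0.238, beside a median of 0.741 over all tested genes. For Trem2 they were Ltb (lymphotoxin beta) at 0.415 and Tubb5 at 0.559, beside 1.66. For Cd36 they were Psmd7 at 0.328 and Nfil3 at 0.348, for Clec4e Blnk at 0.126 and Oaz1 at 0.181, and for Clec5a Eef1g at 0.151 and Gapdh at 0.154, beside medians of 0.774, 0.609 and 0.573. Tubb5, Oaz1, Eef1g and Gapdh are housekeeping genes that also set the scaling. Cd14 had scaled counts of 2335 to 4895 in the sham group and 1161 to 1985 in the 9 Gy day 7 group, and Ltb 37.5 to 105 and 210 to 330, the first lower and the second higher as with Msr1 and Trem2. The fall of Cd14, like that of Msr1, was not called with TMM (edgeR adjusted p = 0.112 at day 3 and 0.0507 at day 7) or total counts (0.577 and 0.444). Ltb lay at or below background in 2 of 3 sham and 3 of 3 samples of 2 Gy day 3 EVs. Tubb5 had a mean scaled count of 22.55 in the sham group, where the background level was 45.5 to 69.5 raw counts. The likeness of both to Trem2 thus rests in part on counts not above that level. Without Cd8a in the background list the raw sham counts of Ltb (38 to 110) lay above it.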

How the data were processed

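The authors deposited raw nanoString counts per gene as whole numbers, from 15 samples and 561 genes, without control probes and before their own normalization in nSolver. The receptors and all gene lists were chosen with earlier results of these data known. Samples were grouped by title. Counts were divided by a factor from 14 housekeeping genes (their geometric mean), and all 5 groups entered one quasi-likelihood fit in edgeR 4.0.16 (R 4.3.3, prior count 0.125) on the 269 genes that averaged 20 counts or more. Benjamini-Hochberg adjustment ran over these genes, with a threshold of 0.05. The SE is the absolute log2 fold change divided by the square root of F. The procedure was run on simulated data with balanced changes and with the same scaling factors as the fit, which cannot test the choice of scaling.

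All receptors are named. Of the other lists, up to 3 genes in each direction are named, by size of change among those past the threshold with 9 Gy day 7 EVs, and exceptions are stated. Same-numbered samples deviated together, with every correlation over 0.1, between the 2 Gy groups (0.365 to 0.779) and between the 9 Gy groups (0.33 to 0.717) but between no other groups. The main fit had no block, also for the comparisons of days, and the replicate block was an alternative. For the comparison of doses pairs were averaged in limma 3.58.1 (an alternative added after the data were seen). What the numbers share is not given in the sources used here. Alternatives were other scalings (TMM, DESeq2 1.42.0 size factors, total counts, only the housekeeping genes averaging 100 or more), DESeq2, no filter, a minimum mean of 100, counts under 20 set to 20, a prior count of 10, counts under the background level set to it (added after the data were seen), only the groups compared, the block, the conflicting samples at day 7 or left out, and each sample left out. Start regions came from RefSeq, where 6 of 6 receptor symbols matched and 5 had a start region.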

Additional observations from a re-analysis of the deposited data

Results flagged for a closer look

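3 receptors changed differently with 9 Gy EVs than with 2 Gy EVs, by the edgeR test of the difference between doses. These are 3 of the 5 tested, where 67.7% of all tested genes were called. Msr1 was lower, at -0.88 (edgeR adjusted p = 0.00293). The call was lost with TMM (-0.43), with DESeq2 size factors (-0.45) and with the conflicting samples left out (-0.60), and the sign turned with total counts. Trem2 was higher by 1.51 (edgeR adjusted p = 0.00285), with all 6 samples of 9 Gy EVs above all 6 of 2 Gy EVs, of which 5 lay at or below background, a separation upward seen for 7.81% of the tested genes. With counts under the background level set to it, the value was 0.75, so its size depends on that level. This call was lost with the conflicting samples left out (1.26, edgeR adjusted p = 0.0598). Clec5a was lower, at -0.52 (edgeR adjusted p = 0.000539), with all 6 samples below, as for 36.1% of the tested genes. It was -0.05 with TMM, and its sign turned with total counts. What lies behind these differences was not tested.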

How the results depend on the processing

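Of 733 alternative values of single receptors, 681 kept their side of the threshold and, where past it, their direction. These include 49 that changed sign with neither value past the threshold. A further 27 fell below the threshold, 13 came past it and 12 reversed. With 9 Gy day 3 EVs against sham EVs the count of 2 receptors called was 1 with TMM (Trem2), 4 with total counts (Cd36, Trem2, Clec4e and Clec5a, all higher), 1 with no filter and 1 with only the groups compared (Msr1 in both), and 0 with the conflicting samples at day 7 or left out. Leaving out 1 sample gave 0 to 2, with 0 without replicate 1 or 2 of 9 Gy day 3 EVs or sham replicate 3, and 1 without sham replicate 1. With 9 Gy day 7 EVs the count of 3 stayed within 1.5 times under every alternative, but not with the same receptors. TMM and DESeq2 size factors called Trem2 and Clec4e, both higher, and total counts called Cd36, Trem2, Clec4e and Clec5a, all higher. The rise of Trem2 held in 20 of 20, the fall of Msr1 in 18 of 21 and the fall of Clec5a in 18 of 21. Both falls were lost under exactly these scalings, and most of the other alternatives kept the housekeeping scaling. Between doses the calls of Msr1 and Trem2 were lost with the conflicting samples left out, which leaves 1 sample at 9 Gy day 3. Reversed values with total counts were 0.94 for Cd36, 0.96 for Clec4e and 0.66 for Clec5a at day 3, 1.06 for Clec4e and 0.52 for Clec5a at day 7, and 0.95 for Clec4e, 0.63 for Clec5a and 0.22 for Msr1 between doses. For Clec4e, DESeq2 size factors gave 0.41 at day 3 and 0.44 at day 7, and TMM gave 0.44 at day 7 and 0.27 between doses. These scalings shift all genes alike by construction. The replicate block with only the groups compared called 1 receptor, Trem2, between the 2 Gy days and changed no other count of receptors called by over 1.5 times. Trem2 has no value with a mean of at least 100. With counts under the background level set to it, an alternative chosen after seeing the data, every receptor kept its side of the threshold, and Trem2 was 0.92 at day 3, 1.10 at day 7 and 0.75 between doses. The level of Trem2 against background moved from 7 of 9 sham and 2 Gy samples at or below it to 2 of 9 without Cd8a. Depth limits the 9 Gy day 3 values of Trem2, with 15 to 32 counts, and of Clec5a, with 31 to 45, where counting error alone is large.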
